A study of Mus musculus with 10 samples.

Results

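Integrins are cell-surface receptors made of 1 alpha and 1 beta chain, and laminins are trimeric proteins of the basement membrane made of 1 alpha, 1 beta and 1 gamma chain. All genes of the deposited count table whose symbol names an integrin alpha chain, an integrin beta chain or a laminin chain were taken, which gave 37 of 39017 genes. They comprised 26 integrin genes and 11 laminin genes. The integrins were described as 9 epithelial, 4 leukocyte (Itgal, Itgam, Itgax and Itgb2) and 13 other integrin genes. Of the 37 genes, 36 passed the filter on low counts and were tested among 16216 genes. The remaining gene, Itgad, had at most 1 read in any library and was not tested.

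RNA was sequenced from 10 mouse lung tumours, 5 of the control group KP and 5 of the group KPG1, in which Slc2a1 is floxed on both alleles. Slc2a1 encodes the glucose transporter Glut1. The comparison addressed how tumours with this gene deleted in cells exposed to Cre differ from controls that retain it. All 10 libraries came from tumours of C57BL/6 males that received the virus Ad5SPC-Cre into the trachea, so that recombination was limited to cells expressing surfactant protein C, and all tumours were taken 18 weeks and 6 days later. Each library came from the cells of a dissociated tumour that remained after depletion of CD45-positive cells with magnetic beads. In the 5 KP libraries the genotype label gives a heterozygous floxed Slc2a1 allele and the description wild type, and they are called KP as the control group of the labels. Loss of Slc2a1 was limited to cells in which Cre had acted, and the libraries also held RNA of other cell types of the tumour. The labels do not say that each tumour came from a different mouse, and p-values therefore measure the spread between these libraries.

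In epithelia, integrin alpha 6 beta 4 binds the laminin that holds the chains Lama3 and Lamb3 in hemidesmosomes, whereas alpha 3 beta 1 and alpha 2 beta 1 bind laminins and collagens and signal through focal adhesions. Integrins alpha v beta 6 and alpha v beta 8 bind latent TGF-beta and release it. Leukocyte integrins share the beta 2 chain, and the laminin chains Lama4 and Lama5 are typical of vessel walls and of epithelial basement membranes, respectively.

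The libraries held 32427029 to 49534284 counts. Slc2a1 was lower in every KPG1 library (5.35 to 6.06 log2 CPM, counts scaled to library size with a prior count of 2) than in every KP library (6.16 to 6.99), a difference of -1.01 with an exact two-sided permutation p of 0.00794. The first principal component took 28.0% of the variance and had KP 1 and KP 5 at its 2 ends. Markers of alveolar type 2 cells, the cells that make surfactant protein C, summed to between 18880.1 and 94207 CPM per library, and the 18 leukocyte markers to between 58.7 and 139.9 CPM. The median fitted log2 fold change over all genes tested was 0.02.

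None of the 36 integrin and laminin genes differed between KPG1 and KP past the adjusted threshold in limma, against 0.173% of all genes tested. At an unadjusted limma p under 0.05 there were 11 genes, which is 30.6% of the 36, where the background over all genes was 11.6%. Of these, 6 had a lower mean in KPG1 (Itgam, Itga2b, Itga2, Itgb4, Itgb6 and Lama5; background 6.31%) and 5 a higher mean (Itga4, Itga8, Lama2, Lama4 and Lamc1; background 5.26%). The quasi-likelihood test of edgeR also called 0 of the 36 after adjustment (background 0.247%), and 9 before it (background 12.5%). DESeq2, which made a larger share of false calls than limma or edgeR on simulated counts, called 2 after adjustment, Itgam and Itga2b, both lower in KPG1 (background in that direction 2.67%), and 13 before it (background 14.1%). The size of the fitted differences ran from -1.04 for Itgam to 0.78 for Itga4.

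**Figure D1:**
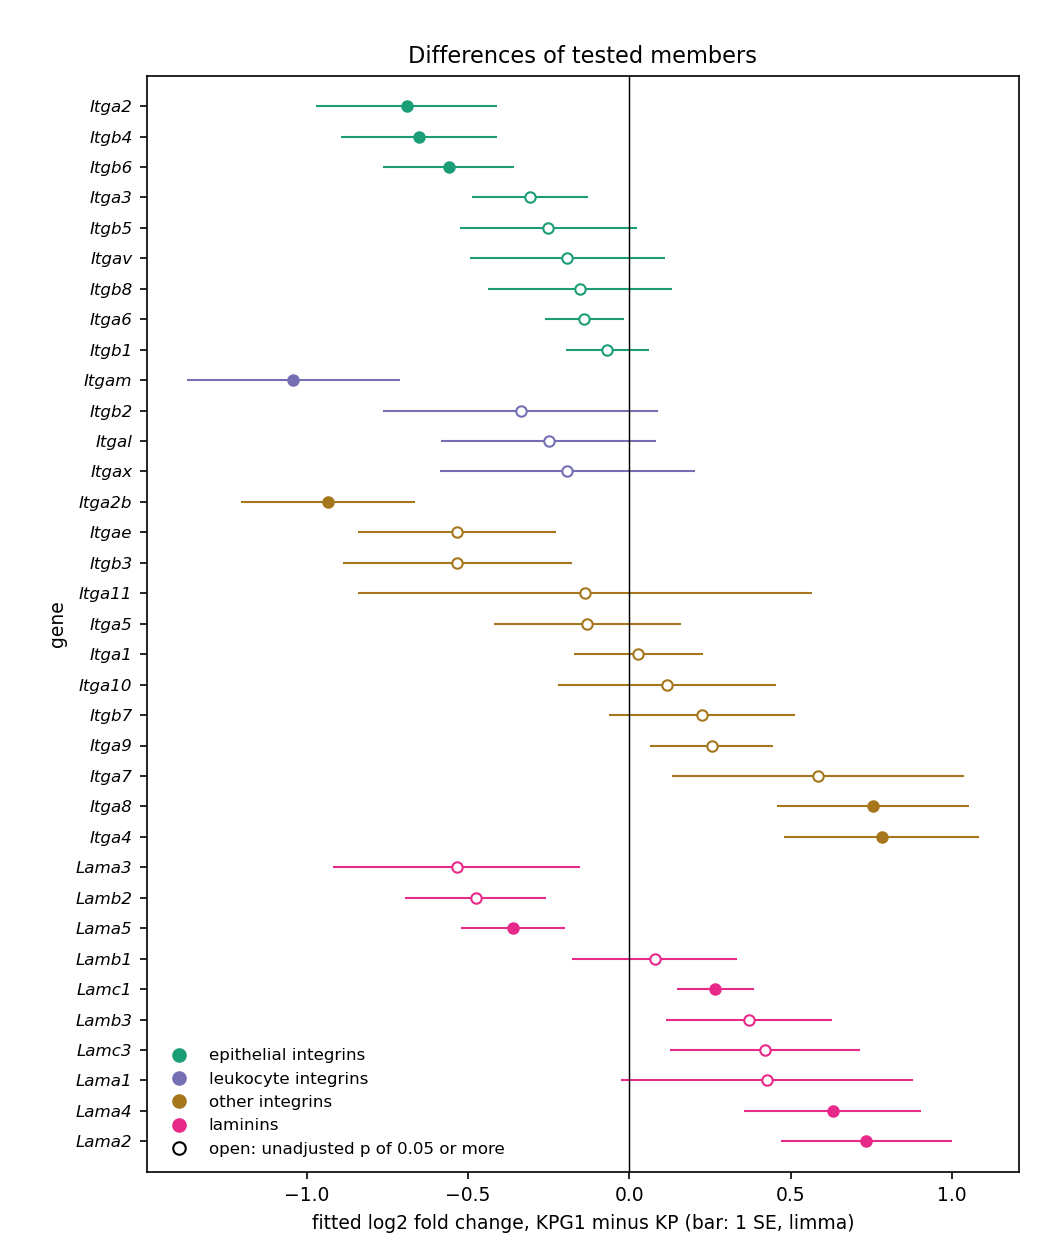
Fitted log2 fold change of KPG1 against KP (x axis) for the tested integrin and laminin genes (y axis), with bars of 1 SE from limma. Colours give the 4 groups of genes and filled points have an unadjusted p under 0.05; all 9 epithelial and all 4 leukocyte integrins lie left of 0, while other integrins and laminins lie on both sides.

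The groups of libraries did not overlap for 2 of the 36 genes, Itgam and Itga2b, both lower in KPG1, where 1.76% of all genes did so in that direction and 1.05% in the other, in which none of the 36 did. Itgam (ENSMUSG00000030786, chr7:128062640-128118491 on the plus strand) encodes integrin alpha M, or CD11b, of neutrophils and macrophages. It was at 4.06, 3.11, 3.49, 2.65 and 2.63 log2 CPM in KP 1 to KP 5, and at 2.12, 2.20, 2.55, 1.36 and 2.44 in KPG1 1 to KPG1 5. The highest KPG1 library lay just under the lowest KP library, so the separation was narrow. The fitted log2 difference was -1.04 (SE 0.33, n = 5 per group), with an adjusted p of 0.263 in limma and 0.026 in DESeq2.

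Itga2b (ENSMUSG00000034664, chr11:102453297-102470122 on the minus strand) encodes integrin alpha IIb, the platelet receptor chain that pairs with Itgb3. Log2 CPM values were 1.53, 1.86, 2.04, 1.47 and 0.98 in KP 1 to KP 5, and 0.90, 0.08, 0.79, 0.65 and 0.80 in KPG1 1 to KPG1 5. KP 5 lay close to KPG1 1, and the gene rested on 39 to 151 reads per library. By limma the log2 difference was -0.93 (SE 0.27, n = 5 per group), with an adjusted p of 0.234 in limma and 0.0191 in DESeq2. Its partner Itgb3 had a fitted log2 difference of -0.53 (SE 0.36) with overlapping groups, at 3.83 to 5.51 log2 CPM in KP and 3.44 to 4.81 in KPG1.

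Of the 37 genes, 23 had a promoter in the RefSeq table (GRCm38.p6), of which the 250 bases before the RefSeq start were searched. Shown are the promoters of Itgam and Itga2b, the 2 genes whose libraries did not overlap, and that of Lama5, the most abundant laminin alpha chain, as a contrast in base composition. They lie at chr7:128062390-128062639 (plus strand), chr11:102469884-102470133 (minus strand) and chr2:180225860-180226109 (minus strand). In Itga2b the GENCODE gene given above starts farther upstream than the RefSeq gene, and 239 of the 250 bases shown lie inside it. Capitals mark matches on either strand to GAGGAA, a core of ETS-family sites that includes those of PU.1, and to GGGCGG, the GC box.
Itgam: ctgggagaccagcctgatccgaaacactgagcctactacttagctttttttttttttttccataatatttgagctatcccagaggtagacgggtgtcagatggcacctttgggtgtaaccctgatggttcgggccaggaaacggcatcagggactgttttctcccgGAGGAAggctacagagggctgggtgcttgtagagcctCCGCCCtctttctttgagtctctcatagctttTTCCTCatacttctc
Itga2b: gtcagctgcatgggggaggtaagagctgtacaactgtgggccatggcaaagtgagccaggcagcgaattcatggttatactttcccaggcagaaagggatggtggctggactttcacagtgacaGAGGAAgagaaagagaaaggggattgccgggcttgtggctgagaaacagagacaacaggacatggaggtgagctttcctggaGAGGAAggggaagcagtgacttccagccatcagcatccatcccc
Lama5: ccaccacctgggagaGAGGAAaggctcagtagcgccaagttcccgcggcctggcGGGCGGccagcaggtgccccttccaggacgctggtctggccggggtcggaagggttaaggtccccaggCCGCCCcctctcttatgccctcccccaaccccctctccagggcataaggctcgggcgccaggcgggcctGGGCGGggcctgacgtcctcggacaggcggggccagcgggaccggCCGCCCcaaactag
The Itgam window held 2 GAGGAA matches, starting 84 and 15 bases before the gene's start, and 1 GC box. In Itga2b there were 2 GAGGAA matches and no GC box, and in Lama5 1 GAGGAA match and 4 GC boxes. Over the 23 promoters, GAGGAA was found in 11 and the GC box in 8, and over the 32851 promoters of the table in 23.3% and 32.7%. The AP-1 site TGANTCA and the GATA site AGATAA were each found in 1 of the 23, Itgax, where 6.75% and 9.99% of the promoters held them. The ETS core CCGGAA was in 1 (Itga3; 12.03% of the table) and the E-box CACGTG in 0 (6.02%). These matches are letters in a window and were not tied to any difference between the groups.

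The levels of the genes, compared per kilobase of exon (RPKM), spanned more than 3 orders of magnitude. Itgb1, the beta chain shared by most integrins outside leukocytes, was the highest of all at 198 ± 19.2 RPKM in KP and 189 ± 25.5 in KPG1 (SD, n = 5). Among epithelial alpha chains, Itga6 (44.0 RPKM over the 10 libraries), Itga3 (43.8) and Itga2 (40.2) had similar levels, and their ranges over libraries overlapped. Itgb4, the hemidesmosomal beta chain that pairs only with Itga6, ranged from 6.85 to 22.2 RPKM, below the 35.4 to 53.3 of Itga6. Of the TGF-beta releasing beta chains, Itgb6 was at 6.64 RPKM and Itgb8 at 0.0689, so Itgb8 was close to the limit of detection with 19 to 41 reads per library. The leukocyte chains were at 0.527 (Itgal) to 2.76 RPKM (Itgb2).

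Laminin chains were unequal in level. Lamb3 stood high at 87.6 RPKM, while Lama3, the alpha chain of the same laminin, was at 14.96 RPKM with a range of 5.35 to 27.6 that did not reach the lowest library of Lamb3. Lama5, the alpha chain that epithelial basement membranes share, was at 70.8 RPKM, and the remaining alpha chains Lama4 (3.79), Lama1 (1.05) and Lama2 (0.339) were far below it. Among the other integrins, Itga9 (30.5) and Itga7 (20.2) were the highest, and Itga7 ranged from 4.31 to 28.4, with KP 1 the lowest library.

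**Figure D2:**
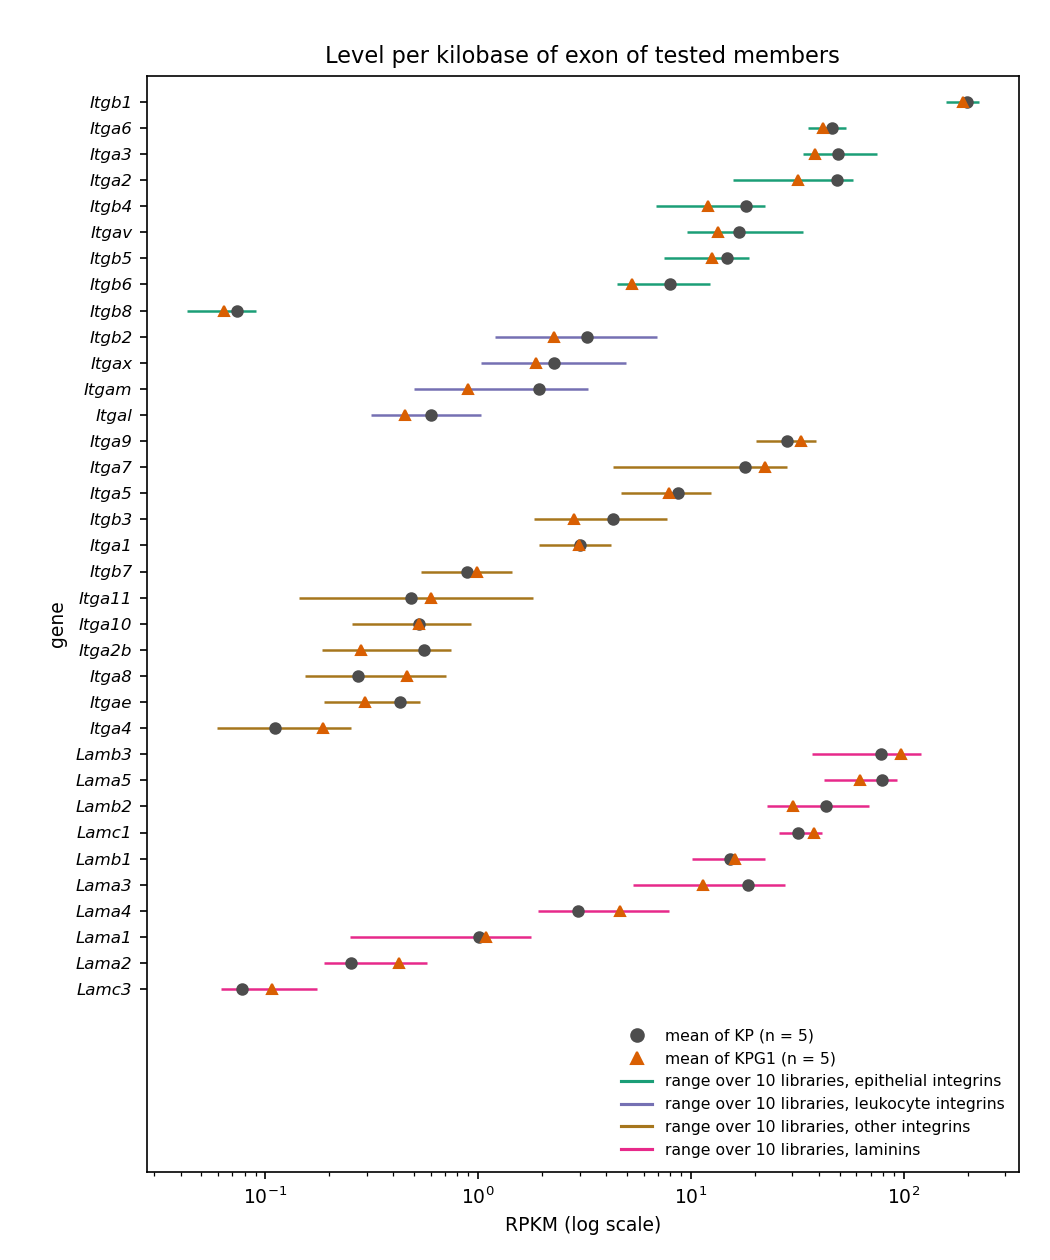
Level of the tested integrin and laminin genes (y axis) in RPKM on a log scale (x axis), with the means of the 5 KP (circles) and 5 KPG1 (triangles) libraries and a line from the lowest to the highest of the 10 libraries. Itgb1 is the highest integrin, while Itgb8, Lamc3 and Itga4 lie under 0.3 RPKM in every library.

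Several of the genes are neighbours in the genome (GRCm38). Itgal (chr7:127296260-127335138), Itgam, Itgax (chr7:128129547-128150657) and the untested Itgad (chr7:128154376-128223816) lie on the plus strand of the same chromosome. Their fitted log2 differences were -0.25, -1.04 and -0.19 for the 3 that were tested. Itgam overlaps Gm49368, which was not analysed here, and Itga1 overlaps Pelo, both on the same strand, so that reads in the shared stretches cannot be assigned to 1 gene by strand. Lamb3 overlaps G0s2 and Hsd11b1 on the opposite strand and, among others, Itga7 overlaps Mettl7b, Itga4 Cerkl and Itgae Haspin in the same way. Whether the counting separated such genes is not known, since its strand setting is not given.

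Epithelial integrins were lower on average in KPG1 for all 9 genes, with a median fitted log2 fold change of -0.25, against 0.02 over all genes tested. The 3 with an unadjusted p under 0.05 were Itga2, Itgb4 and Itgb6, and none passed after adjustment. Their summed level was 2242, 2284, 2313, 2260.4 and 2236 CPM in KP 1 to KP 5 and 1703, 2173, 1649, 2036 and 1988 in KPG1 1 to KPG1 5. Every KPG1 sum lay below every KP sum, and KPG1 1 and KPG1 3 were the lowest. KP 5, the lowest KP sum, held 360 CPM of Itgav, where the other KP libraries held 103 to 176. Its margin over KPG1 2 was smaller than this excess, so the separation rested on the Itgav value of KP 5. The mean sum was 2267 ± 31.7 CPM in KP and 1910.0 ± 225 in KPG1 (SD, n = 5), so the KP sums were closer to each other than the KPG1 sums were. Single chains did not all share this. The SD of log2 CPM was larger in KP for Itga3, Itga6, Itgav, Itgb6 and Itgb8. It was larger in KPG1 for Itga2, Itgb1, Itgb4 and Itgb5.

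Itga2, the alpha chain of the collagen and laminin receptor alpha 2 beta 1, was at 8.69, 8.59, 8.41, 8.07 and 8.31 log2 CPM in KP 1 to KP 5. In KPG1 1 to KPG1 5 it was at 6.82, 7.97, 7.26, 8.16 and 8.41. Only KPG1 1 and KPG1 3 lay clearly under the KP range, and the other 3 KPG1 libraries were within or just under it. This amounted to a log2 difference of -0.69 (SE 0.28, n = 5 per group, limma adjusted p 0.377).

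Itgb4 showed the same 2 libraries at the bottom. It was at 6.68, 6.90, 7.28, 7.0 and 7.02 log2 CPM in KP 1 to KP 5, and at 5.59, 6.33, 5.97, 6.81 and 6.91 in KPG1 1 to KPG1 5. KPG1 4 and KPG1 5 reached into the KP range. Fitted over the 10 libraries, the log2 difference was -0.65 (SE 0.24, n = 5 per group, limma adjusted p 0.334). Its only alpha partner, Itga6, was nearly level, at 8.70, 8.75, 8.91, 8.69 and 8.43 in KP 1 to KP 5 and 8.32, 8.67, 8.51, 8.65 and 8.62 in KPG1 1 to KPG1 5, with a fitted log2 difference of -0.14 (SE 0.12).

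Itgb6, which is restricted to epithelia, was at 5.87, 5.69, 5.29, 6.45 and 5.58 log2 CPM in KP 1 to KP 5 and at 5.02, 5.23, 5.35, 5.49 and 5.00 in KPG1 1 to KPG1 5. KP 3 lay among the KPG1 libraries and KP 4 was the highest. The fitted log2 difference was -0.56 (SE 0.20, n = 5 per group, limma adjusted p 0.327). Its alpha partner Itgav was at 6.69, 7.20, 6.84, 7.46 and 8.49 in KP 1 to KP 5 and at 6.84, 7.49, 7.06, 7.42 and 6.90 in KPG1 1 to KPG1 5. The highest Itgav value was that of KP 5, without which the fitted difference of -0.19 (SE 0.30) turned to 0.08.

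Itga3 was at 7.71, 8.12, 8.75, 7.97 and 7.86 log2 CPM in KP 1 to KP 5 and at 7.72, 7.85, 7.59, 7.93 and 7.79 in KPG1 1 to KPG1 5. Apart from KP 3, its libraries of both groups lay between 7.59 and 8.12, and the fitted log2 difference was -0.31 (SE 0.18). The shared chain Itgb1 was at 9.78, 9.72, 9.47, 9.77 and 9.53 in KP 1 to KP 5 and at 9.69, 9.85, 9.34, 9.52 and 9.52 in KPG1 1 to KPG1 5, with a difference of -0.07 (SE 0.13). The remaining epithelial genes, Itgb5 and Itgb8, had differences of -0.25 (SE 0.27) and -0.15 (SE 0.29). The smallest differences were thus those of Itgb1 and Itga6, the 2 genes with the highest levels of the 9.

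**Figure D3:**
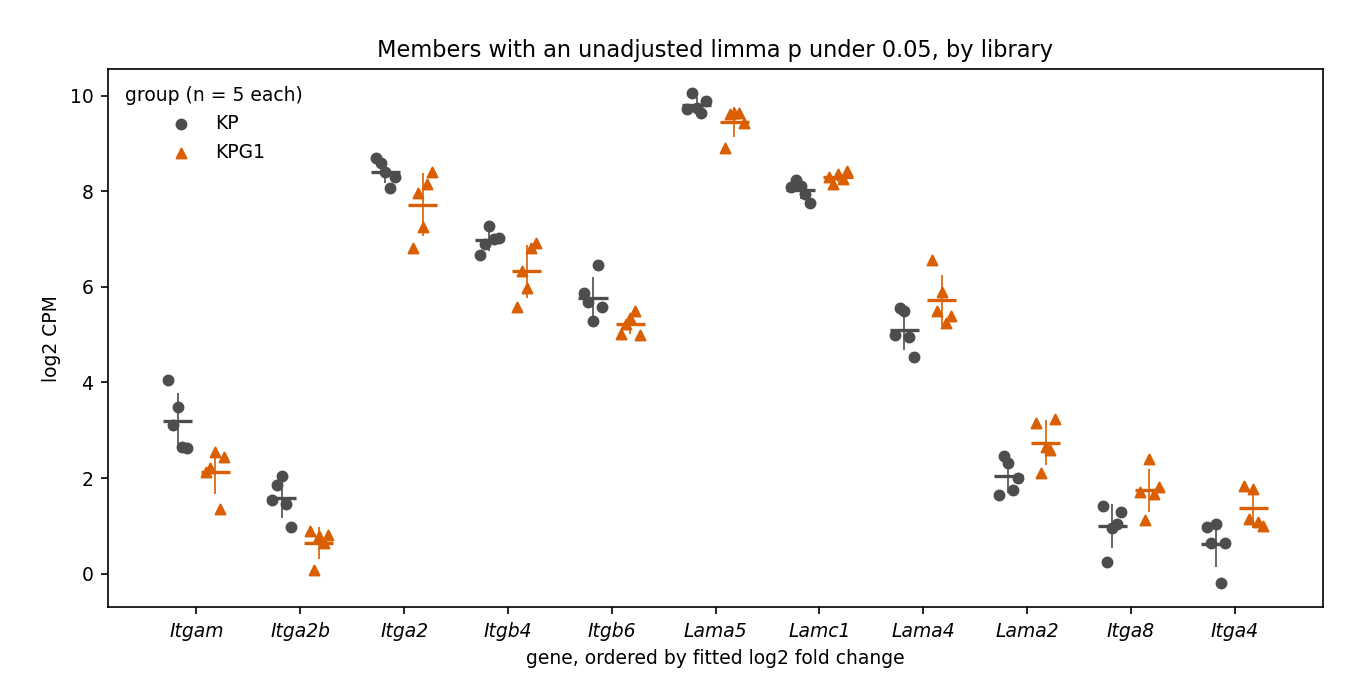
Log2 CPM (y axis) of the 11 genes with an unadjusted limma p under 0.05 (x axis, ordered by fitted difference), with 1 point per library and the mean and SD of each group of 5. Itgam and Itga2b are the 2 genes in which no KPG1 library reaches the KP range, and in the other 9 the groups overlap.

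Epithelial markers had means on both sides. Krt8 (-0.67), Krt18 (-0.87) and Krt19 (-0.79), the keratins of simple epithelium, had unadjusted p under 0.05 and lower means in KPG1, while Epcam (0.05) and Cdh1 (-0.10) were near level. The 7 epithelial markers summed to between 4602 and 6225 CPM in KP and between 3541 and 4225 in KPG1. All 10 alveolar type 2 markers had a higher mean in KPG1, with sums of 18880.1 to 65156 CPM in KP and 50206 to 94207 in KPG1, whereas 4 of 7 alveolar type 1 markers were higher and 3 lower. The groups did not overlap for Krt8 and Krt18, lower in KPG1 (background 1.76%), and for the surfactant lipid transporter Abca3, higher (background 1.05%). No gene of these 3 marker lists passed the adjusted threshold in limma or edgeR, where Krt18 came closest at 0.0501 in limma, and 7 of the 24 had an unadjusted limma p under 0.05 (background 11.6%). DESeq2 called Krt8, Krt18 and Krt19 after adjustment (background 3.46%), and limma called all 3 without KP 5, and Krt8 (adjusted p 0.0223) and Krt18 (0.0171) with a weight per library. Krt18 also passed in limma with no filter (0.0351) and with at least 20 CPM (0.0445). Their part in the integrin values was not tested. In bulk libraries such as these, fewer cells of a type and less RNA per cell cannot be told apart.

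Leukocyte integrins were detected although CD45-positive cells had been depleted, at 17.9 to 62.9 CPM in sum over the 4 genes in KP and at 18.0 to 37.6 in KPG1. All 4 had a lower mean in KPG1, with a median fitted log2 fold change of -0.29, and Itgam, described above, was the only one with an unadjusted p under 0.05. The median rested on few libraries, and was -0.02 without KP 3 and -0.57 without KP 5. Itgb2, the beta chain of the other 3, was at 3.27, 2.91, 4.41, 2.97 and 1.89 log2 CPM in KP 1 to KP 5 and at 2.94, 2.19, 3.52, 2.67 and 2.27 in KPG1 1 to KPG1 5. Its range in KP enclosed that in KPG1, and the fitted log2 difference was -0.34 (SE 0.43, n = 5 per group, limma adjusted p 0.805). Without KP 3 it was -0.02 and without KP 5 -0.67.

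Itgax, or CD11c, of alveolar macrophages and dendritic cells, was at 3.11, 3.01, 4.58, 3.06 and 2.61 log2 CPM in KP 1 to KP 5 and at 3.08, 2.70, 4.05, 3.12 and 2.32 in KPG1 1 to KPG1 5. In both groups 1 library stood high, KP 3 and KPG1 3. The fitted log2 difference of -0.19 (SE 0.40) turned to 0.12 without KP 3. Itgal, the alpha chain of LFA-1 on lymphocytes, had a difference of -0.25 (SE 0.33) with a range of 1.08 to 2.76 in KP that enclosed the 1.31 to 1.97 of KPG1. Itgb7, also a lymphocyte chain but counted among the other integrins, had a difference of 0.22 (SE 0.29). Its partner Itgae had one of -0.53 (SE 0.31).

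Of the 18 leukocyte markers, 15 were tested, of which 11 had a lower and 4 a higher mean in KPG1. They summed to 74.9 to 139.9 CPM in KP and 58.7 to 100.3 in KPG1, with KP 3 and KPG1 3 the highest of their groups. Ptprc, which encodes CD45 itself, was at 2.40 to 3.33 log2 CPM in KP and 2.45 to 3.46 in KPG1, a difference of 0.14 (SE 0.25). The neutrophil genes S100a8 and S100a9 were the 2 of 15 with an unadjusted limma p under 0.05 (13.3%, near the background of 11.6%). Their adjusted p was 0.205 and 0.142 in limma and 0.0073 and 0.000948 in DESeq2 (background 3.46%). With a weight per library limma called both (0.0405 and 0.0382), among 51 higher and 177 lower calls over all genes. S100a9 was at 1.15 to 2.86 in KP and -1.35 to 0.58 in KPG1, and S100a8 at 0.42 to 2.13 and -2.0 to 0.17, so that neither overlapped between the groups (background 1.76%), as with Itgam. Cd3e of T cells and Nkg7 of cytotoxic cells were at 0 in at least 1 library. The part of these markers in the Itgam value was not tested.

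The 12 tested genes among the other integrins had a median fitted log2 fold change of 0.07 (-0.01 without KP 1), with 7 higher and 5 lower means in KPG1. Besides Itga2b, the 2 with an unadjusted p under 0.05 were Itga4 and Itga8, both higher. Itga4, the alpha chain of VLA-4 that binds VCAM-1 and fibronectin, was at 0.97, 0.64, 1.03, -0.19 and 0.65 log2 CPM in KP 1 to KP 5 and at 1.84, 1.15, 1.77, 1.08 and 1.00 in KPG1 1 to KPG1 5. Only KPG1 5 fell among the KP values. By limma the log2 difference was 0.78 (SE 0.30, n = 5 per group, limma adjusted p 0.357), on 35 to 161 reads per library.

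Itga8, a chain of smooth muscle and other mesenchymal cells that binds nephronectin, was at 1.42, 0.24, 0.95, 1.04 and 1.29 log2 CPM in KP 1 to KP 5. In KPG1 1 to KPG1 5 it was at 1.72, 1.12, 2.39, 1.68 and 1.80. KPG1 2 lay within the KP range and the other 4 above it. This amounted to a log2 difference of 0.75 (SE 0.30, n = 5 per group, limma adjusted p 0.364).

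The other 9 ranged in fitted log2 difference from -0.53 (Itgae and Itgb3) to 0.58 (Itga7). Itga7, a laminin receptor chain, had the largest of the positive ones, with an SE of 0.45. It was at 5.13 log2 CPM in KP 1, where the other 4 KP libraries were at 6.35 to 7.85 and the KPG1 libraries at 7.10 to 7.78. Itga11, a collagen receptor chain of fibroblasts, was the most variable of all 36 genes, with an SD within groups of 1.26 log2 CPM. It was highest in KPG1 1 (3.23) and lowest in KPG1 4 (-0.33), so its difference of -0.14 had an SE of 0.70 and turned to 0.32 in edgeR and DESeq2. The fibronectin receptor chain Itga5 (-0.13, SE 0.29) and the collagen receptor chain Itga1 (0.03, SE 0.20; -0.01 in edgeR) were nearly level.

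Platelet markers give little with which to compare Itga2b. Only 2 of the 6 were tested, Pf4 with a fitted log2 difference of 0.59 (SE 0.67) and Ppbp with -1.59 (SE 0.73), neither of which passed the threshold. Gp9, Gp1ba, Gp1bb and Gp6, which define platelets and megakaryocytes, were each at 0 in at least 1 library. The 6 markers summed to 13.1 to 75.4 CPM in KP and 8.81 to 96.4 in KPG1, and their part in the Itga2b value was not tested.

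Laminins had a median fitted log2 fold change of 0.27, with 7 higher and 4 lower means in KPG1. Without KP 5 that median was -0.04, and with genes of at least 20 CPM alone it was -0.12, so the direction of the group was not stable. The 4 genes with an unadjusted p under 0.05 were Lama2, Lama4 and Lamc1, higher, and Lama5, lower. Their summed level, 2555 to 3692 CPM in KP and 2772 to 3261 in KPG1, overlapped between the groups.

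Lama5 was at 9.72, 10.05, 9.75, 9.64 and 9.88 log2 CPM in KP 1 to KP 5 and at 8.91, 9.61, 9.64, 9.65 and 9.44 in KPG1 1 to KPG1 5. KPG1 1 stood apart at the low end, and KPG1 3 and KPG1 4 were level with the lowest KP library. Fitted over the 10 libraries, the log2 difference was -0.36 (SE 0.16, n = 5 per group, limma adjusted p 0.422). Without KPG1 1, the difference was -0.24.

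Lama4, a chain of endothelial and mural basement membranes, was at 4.99, 5.57, 5.50, 4.95 and 4.53 log2 CPM in KP 1 to KP 5 and at 6.57, 5.49, 5.90, 5.24 and 5.40 in KPG1 1 to KPG1 5. KPG1 1 was the highest, and 3 KPG1 libraries lay within the KP range. The fitted log2 difference was 0.63 (SE 0.27, n = 5 per group, limma adjusted p 0.409). Lama2, the alpha chain of muscle and mesenchymal laminin, was at 1.65, 2.46, 2.33, 1.76 and 1.99 in KP 1 to KP 5 and at 3.14, 2.11, 2.64, 2.58 and 3.24 in KPG1 1 to KPG1 5. Only KPG1 2 overlapped the KP libraries, and the fitted log2 difference was 0.73 (SE 0.27, n = 5 per group, limma adjusted p 0.327).

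Lamc1, the gamma chain shared by most laminins, had the smallest spread within groups of all 36 genes (SD 0.15). It was at 8.09, 8.24, 8.10, 7.95 and 7.75 log2 CPM in KP 1 to KP 5 and at 8.30, 8.15, 8.37, 8.25 and 8.42 in KPG1 1 to KPG1 5. All KPG1 libraries but KPG1 2 exceeded the highest KP library, by little. By limma the log2 difference was 0.27 (SE 0.12, n = 5 per group, limma adjusted p 0.421).

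Lama3 and Lamb3, which join in 1 laminin, had fitted differences of opposite signs. Lama3 was at 7.96, 5.85, 7.87, 7.34 and 8.21 log2 CPM in KP 1 to KP 5 and at 7.0, 7.29, 6.94, 6.82 and 6.49 in KPG1 1 to KPG1 5, with KP 2 far below the other KP libraries. Its fitted difference of -0.54 (SE 0.38) was -0.94 without KP 2, with a limma adjusted p of 0.101. Lamb3 was at 9.35, 9.28, 9.17, 7.93 and 8.93 in KP 1 to KP 5 and at 9.65, 9.22, 9.27, 9.46 and 8.95 in KPG1 1 to KPG1 5. Here KP 4 was the low library, and the difference of 0.37 (SE 0.26) was 0.12 without it. The lowest KP library was thus not the same for the alpha and the beta chain. Of the other laminins, Lama1, Lamb1, Lamb2 and Lamc3 had differences of 0.43, 0.08, -0.48 and 0.42, of which that of Lamb2 had an unadjusted limma p of 0.0502. Without KP 5 those of Lama1 and Lamb1 turned to -0.04 and -0.07.

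Most markers of fibroblasts, mural and endothelial cells had a higher mean in KPG1, as did Lama2, Lama4 and Itga8. These integrin and laminin genes were named for being higher, so the shared sign followed from that choice. The fibroblast chain Itga11 had a difference of -0.14 in limma and 0.32 in edgeR. Of the fibroblast markers 8 of 9 had a higher mean in KPG1 (sums of 134.5 to 299.6 CPM in KP and 194.8 to 354.1 in KPG1), of the mural markers 8 of 8 (81.5 to 301.3 and 122.1 to 208.4) and of the endothelial markers 10 of 10 (410.6 to 1233 and 574.6 to 1723). Dcn and Postn of fibroblasts and Rgs5 of pericytes were the 3 of 27 with an unadjusted p under 0.05 (background 11.6%), and none passed after adjustment in limma, edgeR or DESeq2. Outside these 27, the 2 tested mesothelial markers had lower means in KPG1 (-1.07 and -0.63). Over all genes tested, 8547 of 16216 had a higher mean in KPG1. The highest endothelial sum was that of KPG1 1, which was also the highest library of Lama4. The part of these markers in the laminin and integrin values was not tested.

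**Figure D4:**
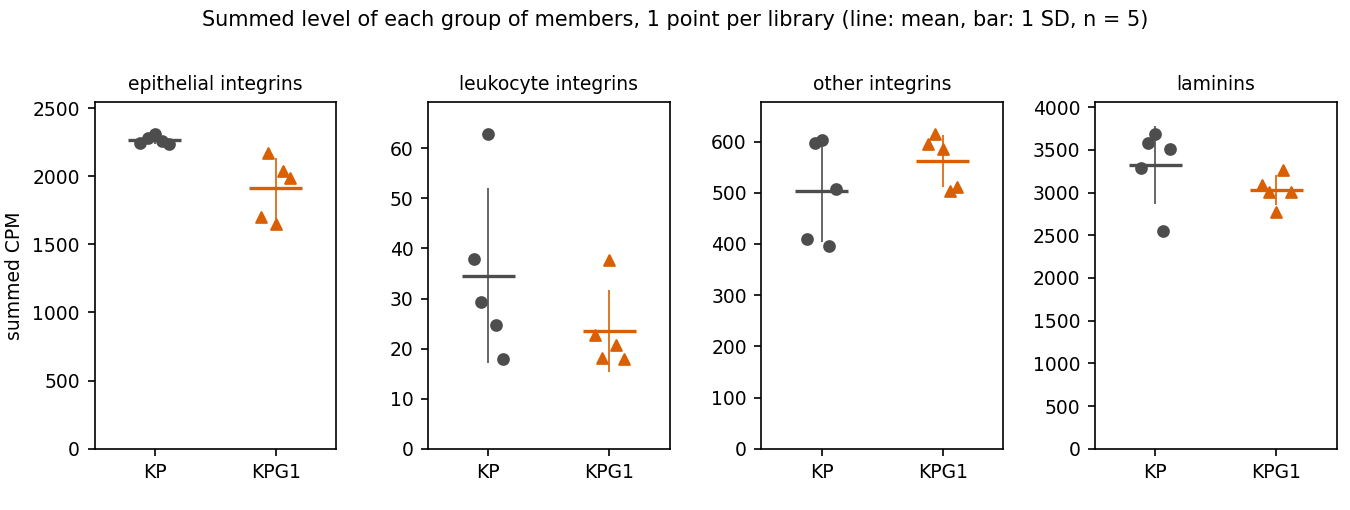
Summed CPM (y axis) of the 9 epithelial, 4 leukocyte and 13 other integrin genes and of the 11 laminin genes in each library, with the mean and SD of the 5 KP and 5 KPG1 libraries; each axis starts at 0. The epithelial sums do not overlap between the groups (2236 to 2313 against 1649 to 2173 CPM), and the sums of the other 3 groups do. The separation of the epithelial sums rests on the high Itgav value of KP 5.

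Chains that form a common receptor or laminin were compared over the 10 libraries in 18 pairs. Only Itgax and Itgb2 passed after adjustment over the 18 pairs (Pearson r = 0.925, permutation p = 0.00015, adjusted p = 0.0027). The Spearman rho was 0.83 (permutation p = 0.00476, adjusted p = 0.0857), r was 0.927 with each group centred on its mean, and r was 0.805 without KP 3 and KPG1 3, the 2 libraries farthest from the median of Itgax. Without KP 3 alone, 0 of the 18 pairs passed. Itgal and Itgb2 had an r of 0.781 (permutation p = 0.00768, adjusted p = 0.0691) and a rho of 0.576 (permutation p = 0.0898, adjusted p = 0.404), and Itgam and Itgb2 an r of 0.499 (permutation p = 0.141, adjusted p = 0.422) and a rho of 0.503 (permutation p = 0.146, adjusted p = 0.438). The order of the 3 alpha chains in r was not tested.

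**Figure D5:**
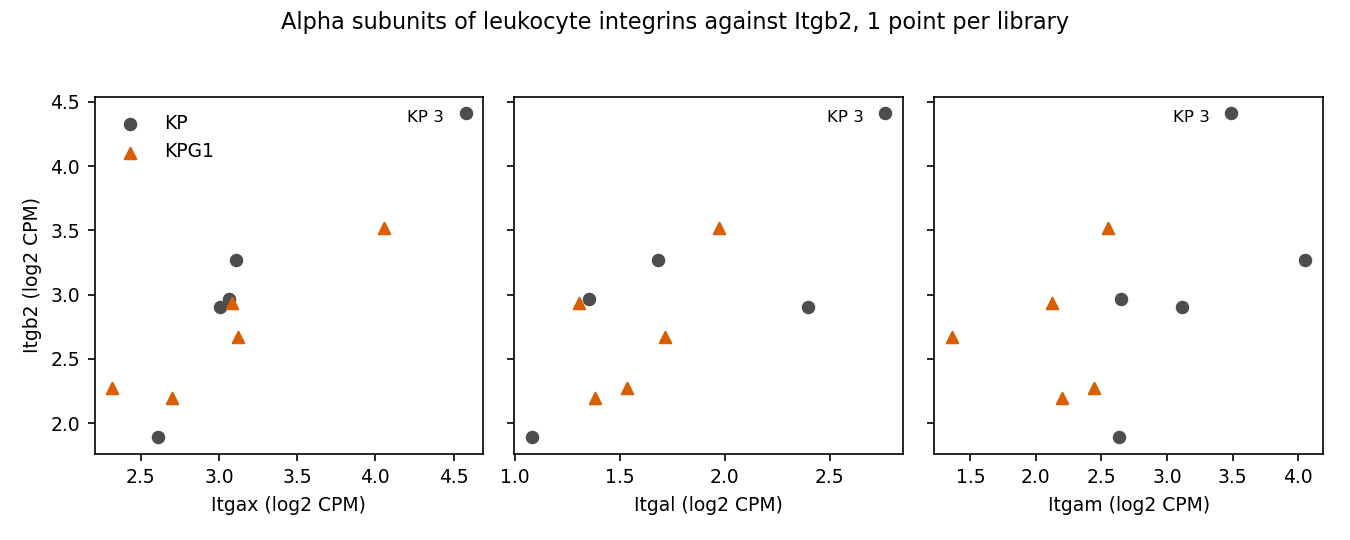
Itgb2 (y axis, log2 CPM) against Itgax, Itgal and Itgam (x axes, log2 CPM), with 1 point for each of the 5 KP and 5 KPG1 libraries. KP 3 is the highest library for Itgb2, Itgax and Itgal, and the points lie closest to a line for Itgax (r = 0.925).

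The hemidesmosomal pair Itga6 and Itgb4 had an r of 0.692 (permutation p = 0.0274, adjusted p = 0.116) and a rho of 0.43 (permutation p = 0.22, adjusted p = 0.494), and r was 0.594 with the groups centred and 0.442 to 0.895 with 1 library left out. It was 0.162 without both KP 3 and KPG1 1, the libraries farthest from the median of Itga6, on which the relation rested. Lama4 and Lamc1 had an r of 0.728 (permutation p = 0.0195, adjusted p = 0.116) and a rho of 0.685 (permutation p = 0.0352, adjusted p = 0.317), and r was 0.553 with the groups centred and 0.669 without KP 5 and KPG1 1. Lamb2 and Lamc1 had a negative r of similar size, -0.689 (permutation p = 0.0321, adjusted p = 0.116), with a rho of -0.539 (permutation p = 0.114, adjusted p = 0.412). This r was -0.485 with the groups centred and -0.188 without KP 5 and KPG1 1, on which it rested. Lama3 and Lamb3 had an r of -0.165 (permutation p = 0.645, adjusted p = 0.805) and a rho of -0.333 (permutation p = 0.352, adjusted p = 0.6). Itgb1 and Itga3 had an r of -0.105 (permutation p = 0.804, adjusted p = 0.905) and a rho of 0.0182 (permutation p = 0.973, adjusted p = 0.973).

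Within groups, the integrins and laminins had a higher spread between libraries than the median gene of like level, which is given as a description. Among those with a mean of at least 5 log2 CPM, the median SD within groups was 0.40 for the 20 integrin and laminin genes and 0.26 for all 6393 such genes. At the low end were Lamc1 (0.15), Itga6 (0.16) and Itgb1 (0.17), and at the high end Itga7 (0.84) and Lama3 (0.70).

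Of 68 other genes of integrin and laminin biology in 4 lists, 64 were tested, of which 27 had a higher and 37 a lower mean in KPG1, and none passed the adjusted threshold in limma or edgeR. At an unadjusted limma p under 0.05 there were 9, or 14.1% of the 64, near the background of 11.6%. DESeq2 called 3 after adjustment (background 3.46%), Thbs1 (adjusted p 0.0146), Egfl6 (0.0103) and Ilk (0.0487). With a weight per library limma called Thbs1 (0.0317) and Egfl6 (0.0326), and without KP 5 it called Thbs1 (0.0492). Among matrix ligands, Thbs1 (thrombospondin 1) was at 10.24, 11.63, 10.71, 10.88 and 9.76 log2 CPM in KP 1 to KP 5 and at 9.94, 9.68, 8.92, 9.16 and 9.86 in KPG1 1 to KPG1 5. Its fitted log2 difference was -1.14 (SE 0.32, limma adjusted p 0.23). Spp1 (osteopontin), a ligand of alpha v integrins, had a difference of -0.90 (SE 0.35, adjusted p 0.361) and was highest in KP 4 (11.39). Egfl6, an RGD-containing ligand of integrin alpha 8 beta 1, did not overlap between the groups (background 1.05%), at 7.86 to 8.50 log2 CPM in KP and 8.55 to 8.98 in KPG1, with a difference of 0.59 (SE 0.14, limma adjusted p 0.154).

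Among the partners of integrins inside the cell, Ilk, which binds beta tails, was at 6.86 to 7.13 log2 CPM in KP and 6.58 to 6.84 in KPG1, without overlap (background 1.76%), and had a difference of -0.30 (SE 0.10, limma adjusted p 0.294). Zyx, of focal adhesions, had -0.58 (SE 0.21), with KP 4 and KP 5 within the KPG1 range. Itgb3bp, named for binding the Itgb3 tail and known also as a centromere protein, had 0.57 (SE 0.19) without overlap (background 1.05%). Talin, the activator of integrins (Tln1, 0.01, SE 0.18), and focal adhesion kinase (Ptk2, 0.06, SE 0.13) were level. Of the laminin receptors and hemidesmosome genes, Sdc4 (-0.38, SE 0.13) and Cd151 (-0.39, SE 0.16), the tetraspanin partner of alpha 3 and alpha 6 integrins, had unadjusted p under 0.05, while Dag1, the dystroglycan gene, was at 0.17 (SE 0.16). Of the TGF-beta genes, Tgfb2 had a difference of 0.73 (SE 0.29), and Tgfb1, whose latent form is released by alpha v beta 6, had -0.02 (SE 0.15).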

How the data were processed

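Poly(A) RNA of the 10 tumour libraries was sequenced with a stranded mRNA kit. The authors trimmed reads (cutadapt 1.4.2 per their processing notes; their methods name another version), aligned them with HISAT2 to mm10 and counted reads per Ensembl gene with featureCounts 1.4.4, and the strand setting and annotation release are not given in the sources used here. The deposited counts are whole reads per gene, not normalized, for 39017 genes. The joint table and the per-library files hold the same numbers (390170 compared, 0 different). The authors also deposited log2 values made from these counts, which served only as a check.

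From the counts, genes were kept with filterByExpr of edgeR 4.0.16, scaled by TMM, and fitted with voom and limma 3.58.1 (R 4.3.3), 16216 genes in all, with group as the only term. Adjustment was by Benjamini-Hochberg over all of them, at 0.05. filterByExpr stood in for the study's TPM filter. Standard errors are those of limma. Log2 CPM used a prior count of 2, and RPKM is CPM per kilobase of union exon in GENCODE M21 (GRCm38). Fits with edgeR, DESeq2 1.42.0, other filters, per-library weights and libraries left out were compared. Fitting was tested on simulated data. A count of 0 allows up to 3 reads, and such limits cover counting error only, since reads carried no molecular identifiers.

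The genes, lists and subunit pairs were chosen with earlier results of these data known. Values in every library were given for genes with an unadjusted p under 0.05 and for defining subunits. Pathway genes with such a p were named, up to 5 per direction, and all other pathway and marker genes named were picked after their values were seen. Lamb4 was on the list but not analysed here. Subunit pairs were tested over 100000 permutations. Promoters were read from RefSeq. The alleles by which the tumours were induced and 1 gene of the list, which stays in counts, medians and sums, are not reported here.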

Additional observations from a re-analysis of the deposited data

Results flagged for a closer look

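In 7 of 106 groups of 5 libraries searched, the highest or lowest library stood apart from the others, with a gap to its neighbour above 0.71 of the group's range, and chance gives about 5.3 of 106. Among leukocyte genes these were Itgax in KP 3 (4.58 log2 CPM, where the remaining 4 controls were at 2.61 to 3.11), the summed leukocyte markers in KP 3 (7.13 on the log2 scale of summed CPM) and S100a8 in KPG1 4 (-2.0 against -0.41 to 0.17). Itgb7, a lymphocyte integrin chain, stood high in KPG1 5 (1.99 against 1.28 to 1.36). Of the laminins, Lama5 stood low in KPG1 1 (8.91 against 9.44 to 9.65) and Lamb2 high in KP 5 (8.71 against 7.66 to 7.94). Spp1 stood high in KP 4 (11.39 against 9.61 to 10.02). The cause of these values was not tested.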

How the results depend on the processing

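In every alternative run, Itgam, Itga2b, Itga2, Itgb4, Itgb6 and Lama5 kept a lower and Itga4, Itga8, Lama2, Lama4 and Lamc1 a higher fitted mean in KPG1, wherever the gene was kept. No integrin or laminin gene passed the adjusted threshold in limma with 1 library left out (0 in all 10 such fits). With DESeq2 2 passed and with a weight per library 1 (Itga2b, adjusted p 0.041), against a range of adjusted p for Itga2b over its alternatives of 0.0191 to 0.617 and for Itgam of 0.026 to 0.521. The counts at an unadjusted p that follow are given without the share over all genes in the same fit, so they cannot be set against a background. Integrin and laminin genes with an unadjusted p under 0.05 numbered 5 to 11 with 1 library left out, with 5 without KPG1 3 and 6 without KPG1 1, 5 among genes with a mean of at least 20 CPM, 7 with the sample number as a covariate, and 8 without both KP 1 and KP 5, an alternative chosen after seeing the data. The causes were not tested. Sample numbers were 11, 12, 15, 16 and 6 in KP 1 to KP 5 and 10, 1, 4, 5 and 9 in KPG1 1 to KPG1 5. Apart from KP 5, every KP number was above every KPG1 number. The fit with the sample number as a covariate can therefore not tell number and group well apart, here and in the values below.

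The same-numbered libraries of the 2 groups did not pair (correlations of their deviations -0.161 to 0.0760, with 1 of the 5 numbers best matched to itself), so they share only a number. A replicate block left 9 integrin and laminin genes at an unadjusted p under 0.05, likewise given without the share over all genes. Over all genes, 4 higher and 1 lower passed the adjusted threshold with the block, against 10 and 18 without it.

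Over all genes, higher and lower calls were 125 and 423 with DESeq2, 51 and 177 with a weight per library, 5 and 31 with at least 20 CPM, 4 and 4 with the sample number as a covariate, 29 lower with edgeR, 31 lower with no filter and 44 lower without KP 1 and KP 5. With 1 library left out they were 3 to 71 higher and 1 to 223 lower, the highest without KP 5. The median log2 fold change of leukocyte integrins was -0.013 with the sample number and -0.568 to -0.0224 with 1 library left out. The median log2 fold change of laminins was -0.12 with at least 20 CPM, -0.064 with a weight per library and -0.0434 to 0.315 with 1 library left out. Slc2a1 passed the adjusted threshold with DESeq2 (-1.04), with a weight per library (-1.13), without KP 1 and KP 5 (-1.29) and without KP 5, and its difference was -1.14 to -0.92 with 1 library left out. Subunit pairs past the threshold numbered 0 to 3 with 1 library left out. Differences changed sign for Itgav with a weight per library (0.0653) and without KP 5 (-0.353 to 0.0812 over the fits with 1 library left out), for Itgax with the sample number (0.0207) and without KP 3 (-0.453 to 0.121 over those fits), and for Itgb2 with the sample number (0.15). They also did so for Itga11 with edgeR (0.324), DESeq2 (0.325), the replicate block (0.0415) and the sample number (0.208), for Itga1 with edgeR (-0.0142), DESeq2 (-0.0294), the sample number (-0.0708) and without KP 1 and KP 5 (-0.0713), for Itga10 with edgeR (-0.000951), DESeq2 (-0.0134) and the sample number (-0.165), for Itga5 with the sample number (0.261), for Lama1 with a weight per library (-0.064), and for Lamb1 with a weight per library (-0.101) and without KP 1 and KP 5 (-0.151). With 1 library left out these ran from -0.761 to 0.179 (Itga11), -0.119 to 0.158 (Itga1), -0.119 to 0.349 (Itga10), -0.352 to 0.0159 (Itga5), -0.0434 to 0.696 (Lama1) and -0.0700 to 0.221 (Lamb1). None of these 9 genes passed the adjusted threshold in any alternative run. Of the tested genes, Lamc3, Itgb8, Itgae, Itga4, Itga11 and Itga2b had the lowest mean levels, in that order, and counts limit them most.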
